A study of Mus musculus with 6 samples.

Results

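The genes described here are 6 markers of Schwann cell precursors, the glial cells that travel along growing nerves, chosen by name as Ngfr, Sox10, Fabp7, Erbb3, Gfra3 and Foxd3. Of the 6, 4 had a named probe in the table (Ngfr, Gfra3, Foxd3 and Fabp7, with 6 probes in all, 3 of them for Gfra3), among 16593 genes with a named probe. Sox10 and Erbb3 were not analysed here. The samples were mouse hindlimb buds at stage E12.5 of gestation, in the strain labelled SV129, from matings of Pitx1+/- animals. They comprised 3 samples of genotype PITX1+/+ (wild type) and 3 of genotype PITX1-/- (called knockout), with 1 Illumina bead array for each. Embryos were genotyped by PCR, the deleted part of Pitx1 is not given in the sources used here, and nothing in the labels tells single embryos from pools. The p-values therefore measure the spread between these samples, which may be technical.

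Schwann cell precursors arise from the neural crest and enter the limb with the ingrowing sensory and motor axons. They depend on neuregulin from the axons, which they read through the ErbB2 and ErbB3 receptor pair, and they later give rise to Schwann cells and to part of the melanocytes. Among the members, Sox10 and Foxd3 are transcription factors of the neural crest and its glia, Fabp7 is a fatty acid binding protein of immature glia, Ngfr is the p75 neurotrophin receptor, and Gfra3 is the co-receptor that binds artemin (Artn) and signals through Ret. Ngfr is not restricted to glia, since mesenchymal cells of embryonic limbs also express it, and Gfra3 is also made by sensory neurons.

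Of the 4 genes, Ngfr and Gfra3 gave a signal above background on all 6 arrays, and Foxd3 and Fabp7 did not. Intensities are in arbitrary units, can lie below 0, and were taken as above background over 14.3 units, a threshold set from the values below 0. The Fabp7 probe gave 10.4, -3.6 and -0.8 units in wild type and 6.2, 1.7 and -1.5 in knockout, so it was above background on 0 of 6 arrays. The Foxd3 probe gave 8.6, -4.6 and 20.9 units in wild type and 4.3, 5.3 and 8.5 in knockout, so 1 wild-type array lay above background. The values of both genes overlapped between genotypes and straddled or stayed near 0 on most arrays. Further markers of the lineage ranged from undetected to bright. Cdh19, a cadherin of Schwann cell precursors, lay between -8.4 and 0.27 units on the 6 arrays, and Dhh, the hedgehog ligand of the Schwann lineage, lay between -1.0 and 10.3 units. S100b, a glial calcium binding protein (named after its values were seen), lay between -11.6 and -2.8 units. Of the 28 other precursor and neural crest genes with a probe, 18 were above background on all 6 arrays at their brightest probe. Of all 16593 genes with a named probe, 8305 were. Among the 18, in wild type, were Ednrb at 261.6 to 328.2 units (at 1 of its 3 probes) and Mia at 192.9 to 268.6 units. The other Ednrb probes were below background on all 6 arrays. Other cells of the bud can also express Ednrb and Mia. With Foxd3 and Fabp7 dim and 2 members not analysed, the 4 genes did not settle how far the signal came from Schwann cell precursors, and the values below are given as those of Ngfr and Gfra3, not of a cell type. In whole tissue, fewer cells of a type and less RNA per cell cannot be told apart.

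**Figure D1:**
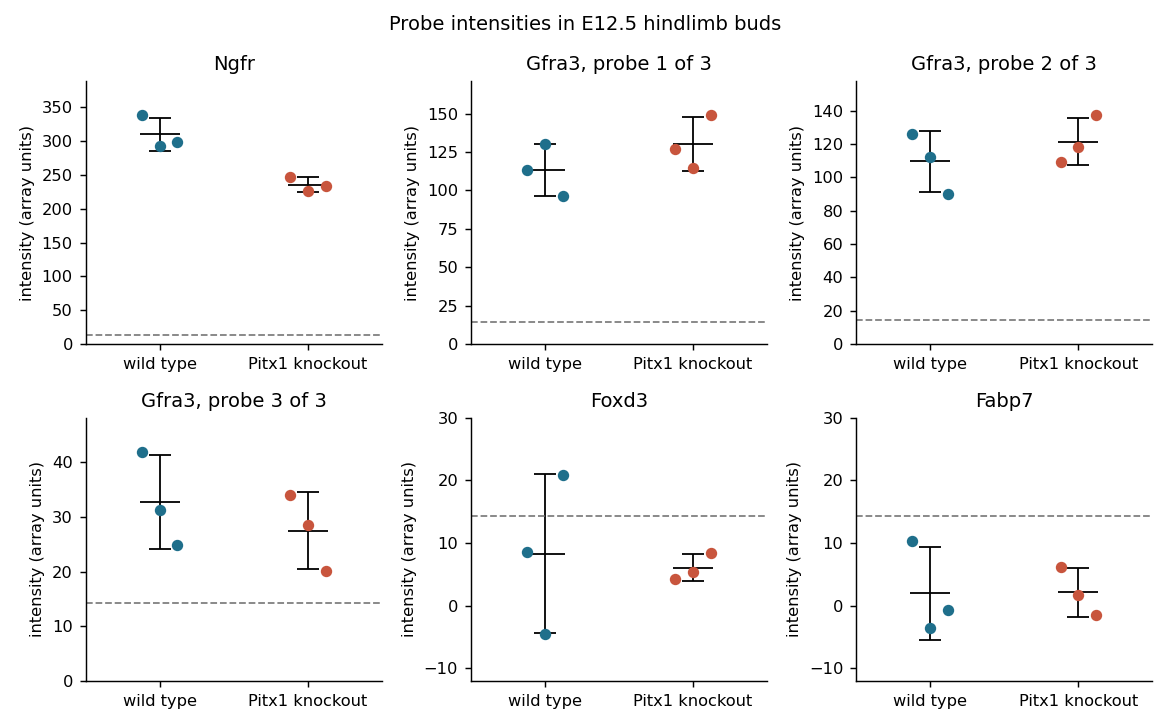
Intensity in array units of each of the 6 probes (vertical axes, linear, not shared) in wild type (blue) and Pitx1 knockout (red), with points for the 3 arrays of a genotype, black marks for the mean and SD, and a dashed line at the background threshold of 14.3 units. The Ngfr points of the genotypes do not overlap, those of the 3 Gfra3 probes do, and Foxd3 and Fabp7 lie below the line on all arrays but 1.

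The sequence before the start site is shown for 3 members, Ngfr, Foxd3 and Fabp7, which differ in base composition. No window is shown for Gfra3, and a link between base composition and signal was not tested. Each run is the 250 bases upstream of the RefSeq start (GRCm38.p6), 5′ to 3′ on the gene's strand. Capitals mark the GC box GGGCGG on either strand, the one motif found of 3 searched. The windows lie at chr11:95587699-95587948 (minus strand) for Ngfr, chr4:99656049-99656298 (plus strand) for Foxd3 and chr10:57784673-57784922 (plus strand) for Fabp7.
Ngfr: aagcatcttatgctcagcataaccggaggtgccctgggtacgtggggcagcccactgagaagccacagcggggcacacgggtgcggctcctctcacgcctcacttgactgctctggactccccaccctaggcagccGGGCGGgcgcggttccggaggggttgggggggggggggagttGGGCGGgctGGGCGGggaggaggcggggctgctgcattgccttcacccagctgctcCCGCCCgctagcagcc
Foxd3: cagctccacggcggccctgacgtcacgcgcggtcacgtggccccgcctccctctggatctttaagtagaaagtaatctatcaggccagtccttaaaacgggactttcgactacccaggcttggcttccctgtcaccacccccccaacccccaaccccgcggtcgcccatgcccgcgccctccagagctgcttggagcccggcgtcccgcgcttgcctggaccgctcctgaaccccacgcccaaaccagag
Fabp7: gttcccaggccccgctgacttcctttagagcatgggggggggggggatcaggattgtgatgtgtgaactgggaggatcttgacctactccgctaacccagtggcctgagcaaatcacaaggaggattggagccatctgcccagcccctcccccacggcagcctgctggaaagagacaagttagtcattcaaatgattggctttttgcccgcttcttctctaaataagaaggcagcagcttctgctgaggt
The Ngfr window held 4 GC boxes and was 70.4% G and C, higher than 91.2% of the 32851 windows in the table, whose median was 52.4%. The Foxd3 window was 65.6% G and C and the Fabp7 window 54.8%, and neither held a GC box, which 32.7% of all windows held. The PITX motif TAATCC (6.25% of windows) and the SOX motifs ACAAAG and ACAATG (25.2% of windows held at least 1), each searched on both strands and with no letters shared between motifs, were in none of the 3 windows. These are matches of letters in a short window and say nothing of binding.

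Ngfr was lower in every knockout sample than in any wild-type sample, although the difference did not pass the test across all probes. Its single probe gave 337.7, 292.1 and 298.7 units in wild-type replicates 1, 2 and 3 and 247.1, 225.5 and 233.7 in knockout replicates 1, 2 and 3. The lowest wild-type value thus lay well above the highest knockout value. Wild type averaged 309.5 ± 24.6 units and knockout averaged 235.4 ± 10.9 (mean ± SD of 3 arrays), a knockout level 0.761 times that of wild type. The log2 scale used a background model and an offset of 50, which shrink changes, most at dim probes. For Ngfr an offset of 16 gave a log2 difference of -0.34. Values floored at the background threshold, without the model, gave -0.39. At the offset of 50 the difference was -0.31 ± 0.09 (SE), with a 95% interval from -0.50 to -0.11. The unadjusted p was 0.0044, and after Benjamini-Hochberg adjustment over the 13720 probes tested the limma p was 0.33.

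Of the 4 member probes tested, 0 were past the threshold of 0.05 on the limma adjusted p, which 0.219% of all probes tested passed, and 1 (Ngfr) had an unadjusted p under 0.05, as did 8.05% of all probes. The genotypes did not overlap for Ngfr alone among the 4, and they did not overlap for 13.2% of all probes. By unadjusted p, Ngfr ranked 187th of the 13720 probes. Leaving out any 1 array kept the Ngfr difference between -0.34 and -0.26, with adjusted p-values of 0.24 to 0.91. Without knockout replicate 3, which stood apart on the first principal component (at 22.3, with the other arrays from -8.9 to 1.4), the difference was -0.31 (limma adjusted p = 0.61). Groups of 3 against 3 cannot reach a two-sided exact permutation p under 0.1.

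The 3 probes of Gfra3, the artemin co-receptor, were above background on all 6 arrays and showed no difference beyond the spread between samples. The brightest probe gave 113.3, 130.1 and 96.2 units in wild type and 127.0, 114.7 and 148.8 in knockout. The second gave 126.2, 112.2 and 90.0 units in wild type and 109.1, 118.0 and 137.1 in knockout. In both, the lowest value was wild-type replicate 3 and the highest was knockout replicate 3, with the other arrays interleaved. The third, dimmer probe gave 41.9, 31.2 and 24.9 units in wild type and 33.9, 28.4 and 20.0 in knockout. Here wild-type replicate 1 was highest and knockout replicate 3 lowest, so knockout replicate 3 stood at opposite ends of the probes of 1 gene. The files do not say which part of the transcript each probe reads.

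The log2 fold changes of the Gfra3 probes were 0.13 ± 0.10, 0.09 ± 0.10 and -0.07 ± 0.10 (SE), with limma adjusted p-values of 0.77, 0.83 and 0.87. Their 95% intervals ran from -0.09 to 0.35, from -0.12 to 0.31 and from -0.28 to 0.14. As the mean of its 3 probes the gene gave 0.05 ± 0.09 (limma adjusted p = 0.90). Without knockout replicate 3, the probes gave 0.06, 0.04 and -0.02. Foxd3 and Fabp7, fitted without the filter on dim probes, gave -0.03 ± 0.10 and 0.01 ± 0.09 (SE; limma adjusted p = 0.98 and 0.99). Differences between signals at background say nothing about expression of these 2 genes.

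Along the pathway of Gfra3, ligand and co-receptor were measurable and the signalling receptor was not. Artn, the ligand of Gfra3, gave 274.8, 295.8 and 284.5 units in wild type and 283.0, 271.4 and 263.4 in knockout at its brightest probe. The genotypes overlapped (log2 fold change -0.05 ± 0.09 SE, limma adjusted p = 0.90), and the gene's other 3 probes gave 0.00 to 0.05. Both probes of Ret, the receptor tyrosine kinase that carries the signal of the family, stayed below background on all 6 arrays, from -10.0 to 6.3 units. Nrtn, the ligand neurturin, gave a log2 fold change of 0.07 ± 0.09, Dok4, an adaptor of Ret, gave -0.06 ± 0.09, and Gdnf itself was above background on 3 of 6 arrays (0.02 ± 0.14). Gfra1 and Gfra2, the co-receptors for GDNF and neurturin (named after their values were seen), were above background on 1 and 0 of 6 arrays. Of the 12 genes of the GDNF family list with a probe, 5 were tested and 0 passed in limma, as did 0.273% of all 9539 genes tested. A single gene had an unadjusted p under 0.05, as did 8.51% of all genes. This was Sdc3, a syndecan that binds GDNF, at 1075, 830.1 and 992.0 units in wild type and 852.6, 762.7 and 612.0 in knockout (-0.35 ± 0.12, limma adjusted p = 0.45), with 1 knockout value above the lowest of wild type.

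Among the neurotrophin partners of Ngfr, Ntrk2 was measurable with 1 of its 3 probes and Ntrk3 was not. At that probe Ntrk2, the BDNF receptor TrkB, gave 66.3, 77.8 and 87.6 units in wild type and 71.5, 98.1 and 63.0 in knockout. Its other probes stayed below background on all 6 arrays, from -16.9 to 7.6 units. The genotypes overlapped widely at the measurable probe, with a log2 fold change of -0.00 ± 0.11 (SE, limma adjusted p = 1.00). The 4 probes of Ntrk3, the NT-3 receptor TrkC, were above background on at most 1 of 6 arrays. Bdnf, a ligand (named after its values were seen), gave a log2 fold change of 0.14 ± 0.11. Sort1, or sortilin, which binds proneurotrophins together with p75, gave 1862, 1861 and 2038 units in wild type and 1764, 1664 and 1488 in knockout. Its genotypes did not overlap at this probe (-0.22 ± 0.10, limma adjusted p = 0.60), while its other probes gave -0.19, 0.12 and -0.07. Traf6, an adaptor of p75, gave -0.23 ± 0.10 (adjusted p = 0.56) and a second tested probe -0.08. Maged1, the p75 interactor NRAGE, gave -0.24 ± 0.11 (adjusted p = 0.62). Of the 13 genes of the list with a probe, 10 were tested, 0 passed in limma (0.273% of all genes tested) and 2 had an unadjusted p under 0.05 (8.51% of all genes tested).

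For the neuregulin and ErbB pathway, the receptor pair of the precursors, Erbb2 and Erbb3, was not analysed here. Nrg1, the neuregulin that axons present, gave 16.5, 15.0 and 8.0 units in wild type and 4.1, 13.9 and 11.5 in knockout, above background on 2 of 6 arrays, and was not tested. Of the 19 genes with a probe, 13 were tested, 0 passed in limma (0.273% of all genes tested) and 3 had an unadjusted p under 0.05 (8.51% of all genes tested). The 3 were Egfr, the EGF receptor (log2 fold change -0.37 ± 0.12 SE, limma adjusted p = 0.41), Pik3r1, a PI3-kinase subunit (-0.36 ± 0.12, adjusted p = 0.41), and Ptpn11, the phosphatase SHP2 (-0.36 ± 0.14, adjusted p = 0.54). The other tested probes of Egfr gave -0.04 and -0.14 and the second of Pik3r1 gave -0.37, but those of Ptpn11 gave 0.01 and 0.05. A log2 fold change below 0 was found for 12 of the 13 and for 4790 of all 9539 genes tested, with medians of -0.09 and -0.00. Knockout replicate 3 lay lowest for the list, with a mean log2 level of -0.26 relative to wild type, against -0.09 and -0.07 in knockout replicates 1 and 2.

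**Figure D2:**
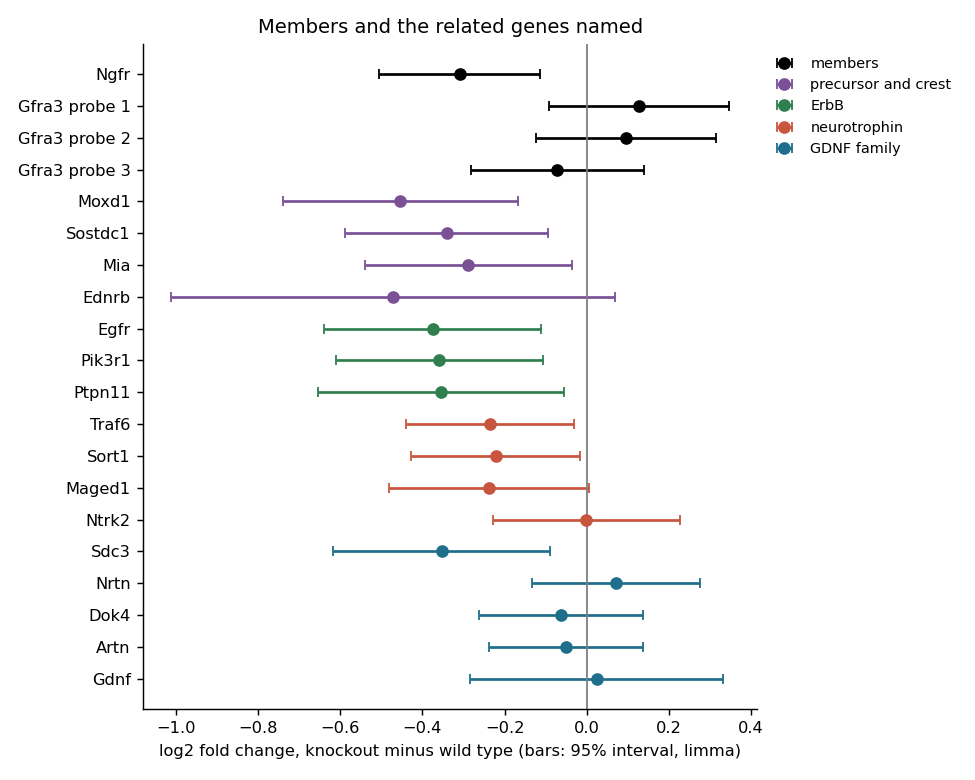
Log2 fold change of knockout minus wild type (horizontal axis) with its 95% interval from limma for the 4 tested member probes and the related genes named, coloured by list. Ngfr lies at -0.31 with an interval from -0.50 to -0.11, and the intervals of the 3 Gfra3 probes span 0.

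Other genes of the precursors and of the neural crest gave a mixed picture. Of the 28 with a probe, 18 were tested, 0 passed in limma (0.273% of all genes tested) and 5 had an unadjusted p under 0.05, all 5 with a lower mean in knockout, where 4.85% of all genes tested had an unadjusted p under 0.05 and a lower mean. The median of the 18 was -0.03. Moxd1, a monooxygenase-like gene of the neural crest, gave 391.5, 463.1 and 414.7 units in wild type and 302.9, 365.3 and 214.5 in knockout. Its genotypes did not overlap (log2 fold change -0.45 ± 0.13 SE, limma adjusted p = 0.32), and its second probe gave -0.22. Sostdc1, a secreted BMP and Wnt antagonist, gave 299.6, 363.3 and 282.0 units in wild type and 231.4, 276.1 and 194.7 in knockout, again without overlap (-0.34 ± 0.11, adjusted p = 0.43). Mia, a secreted protein that cartilage also makes, gave -0.29 ± 0.12 (adjusted p = 0.56). These genes are also expressed outside the glial lineage.

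Ednrb, the endothelin receptor of migrating neural crest, gave 271.0, 328.2 and 261.6 units in wild type and 340.8, 207.2 and 76.9 in knockout. The knockout samples spread from the highest to the lowest of all 6 values (log2 fold change -0.47 ± 0.25 SE, limma adjusted p = 0.66). Sox2, a transcription factor of immature Schwann cells, was above background on 0 of 6 arrays with both probes. Among 20 genes of myelin and later Schwann cells with a probe, 11 were tested, 0 passed in limma (0.273% of all genes tested) and 1 had an unadjusted p under 0.05, a share close to the 8.51% of all genes tested. This was Pmp22, a myelin protein that mesenchyme also makes, at 217.9, 224.7 and 231.6 units in wild type and 160.3, 238.5 and 96.7 in knockout (-0.37 ± 0.16, adjusted p = 0.61). Its second probe gave -0.51 (adjusted p = 0.22). Jun (-0.24 ± 0.15) and Sox9 (-0.35 ± 0.17), transcription factors with roles in many cell types, had the next smallest p-values of that list.

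Axons are the substrate of the precursors, and most axon and neuron genes were too dim to test. Of the 24 with a probe, 9 were tested, against 9539 of all 16593 genes with a named probe. In limma 0 of the 9 passed (0.273% of all genes tested) and 0 reached an unadjusted p under 0.05 (8.51% of all genes tested). How far these RNA levels follow the number of axons in the bud was not tested. Tubb3, neuronal tubulin, gave 11.2, 5.3 and 19.0 units in wild type and 14.6, 13.4 and 6.9 in knockout, above background on 2 of 6 arrays. Stmn2, a growth cone protein (a marker fixed for axons), was above background on all 6, at 66.9, 120.9 and 141.9 units in wild type and 126.8, 101.6 and 94.8 in knockout. Nefm, a neurofilament, gave 35.1, 37.0 and 44.1 units in wild type and 40.3, 39.8 and 8.0 in knockout, so knockout replicate 3 alone was below background. Nefl and Prph, further neuronal filaments, were below background on all 6 arrays. Uchl1, an abundant neuronal hydrolase (-0.12 ± 0.09), and Isl1, which hindlimb mesenchyme also expresses (-0.30 ± 0.21), were, with Nefm, the tested genes of the list with the smallest p-values and did not pass. For melanoblasts, the pigment lineage that also arises from the neural crest, Mitf and Dct were above background on 0 of 6 arrays. Of the 8 genes of that list with a probe, 4 were tested in limma, of which 0 passed and 0 reached an unadjusted p under 0.05. The lowest p-values of that list belonged to Gpnmb, Mlana and Pmel, with log2 fold changes of -0.13, -0.06 and 0.09.

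**Figure D3:**
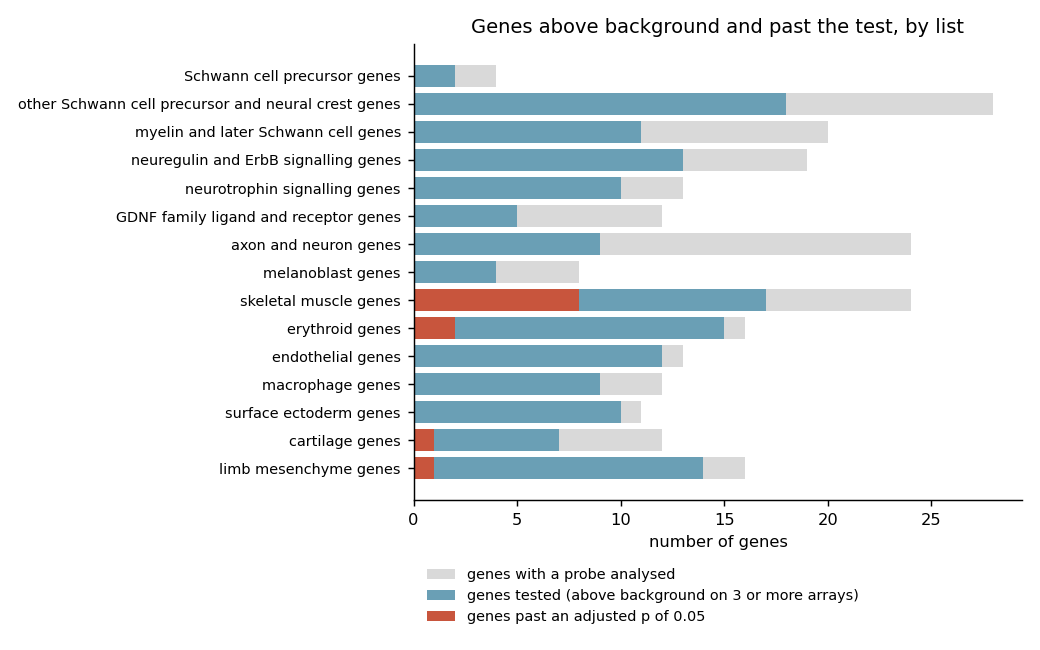
Number of genes (horizontal axis) with a probe analysed (grey), tested because a probe was above background on 3 or more arrays (blue) and past an adjusted p of 0.05 in limma (red), for each list, the bars starting at 0 and drawn over each other. Of the Schwann cell precursor genes 2 of 4 were tested and 0 passed, and of the axon and neuron genes 9 of 24 were tested.

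Levels of other cell types moved with genotype beside the Ngfr difference. The Pitx1 probe itself gave 154.0, 124.5 and 140.2 units in wild type and 78.3, 75.2 and 76.1 in knockout, without overlap (log2 fold change -0.51 ± 0.09 SE, limma adjusted p = 0.038). All 3 knockout values were still over the 14.3-unit threshold, and since the deleted part of the gene is not given, the probe shows a lower level in the samples labelled knockout and not the absence of the transcript. The tissue markers Prrx1, Twist1, Msx1 and Tbx4 were above background on all 6 arrays and Tbx5, the forelimb gene (named after its values were seen), on 0. Tbx4 was lower in knockout without overlap (-0.51 ± 0.10, limma adjusted p = 0.076). Prrx1 was higher without overlap at its brightest probe (0.28 ± 0.10, limma adjusted p = 0.47), and Twist1 and Msx1 overlapped. Of the 14 limb mesenchyme genes tested, 1 passed in limma (Pitx1 itself). An unadjusted p under 0.05 was reached by 5, of which 2 were lower and 3 higher. Of the 17 skeletal muscle genes tested, 8 fell and 9 did not pass in limma, where 0.273% of all genes tested passed. An unadjusted p under 0.05 was reached by 16 of the 17, all lower in knockout, and by 8.51% of all genes tested. The summed intensity of the 17 ran from 15943 to 19933 units in wild type and from 2604 to 8917 in knockout. Of the 15 erythroid genes tested, 2 rose (Nfe2 and Car2) and 13 did not pass. An unadjusted p under 0.05 in limma was reached by 11 of the 15, all higher in knockout. Their list summed to 182527 to 194765 units in wild type and 200269 to 213789 in knockout. Cartilage genes (7 tested, 1 fell, Matn4) summed to 3314 to 5230 units in wild type and 1818 to 3401 in knockout. Of these 7, 3 had an unadjusted p under 0.05, all lower. Macrophage genes (9 tested, median -0.22) summed to 1181 to 1479 and 851 to 1236 units, while endothelial (12 tested) and surface ectoderm genes (10 tested) had medians of -0.02 and -0.04. In these last 3 lists 0 genes passed in limma, and 3, 0 and 0 had an unadjusted p under 0.05, where 8.51% of all genes tested did.

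The part of these shifts in the Ngfr value was not tested. Relative to the wild-type mean, Ngfr lay at -0.25, -0.36 and -0.32 on the log2 scale in knockout replicates 1, 2 and 3. The mean of the muscle genes lay at -0.66, -0.89 and -1.64 in the same samples, and that of the cartilage genes at -0.30, -0.30 and -0.65. The other precursor and neural crest genes lay at -0.01, -0.12 and -0.19, the neuregulin and ErbB genes at -0.09, -0.07 and -0.26, and the axon and neuron genes at -0.03, -0.02 and -0.16. All of these knockout means lay below the wild-type mean, as did those of the macrophage, neurotrophin and GDNF family lists. The mean of the erythroid genes lay above it, at 0.24, 0.39 and 0.48 in knockout replicates 1, 2 and 3. Knockout means of the limb mesenchyme, endothelial, surface ectoderm, melanoblast and myelin lists lay on both sides of it. For Ngfr and the muscle, cartilage, macrophage, and neuregulin and ErbB lists, every knockout value lay below every wild-type value. The other precursor, axon, neurotrophin and GDNF family lists overlapped between genotypes. Wild-type replicate 1 lay at -0.065 for the axon and neuron genes and at -0.015 for the other precursor and neural crest genes.

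**Figure D4:**
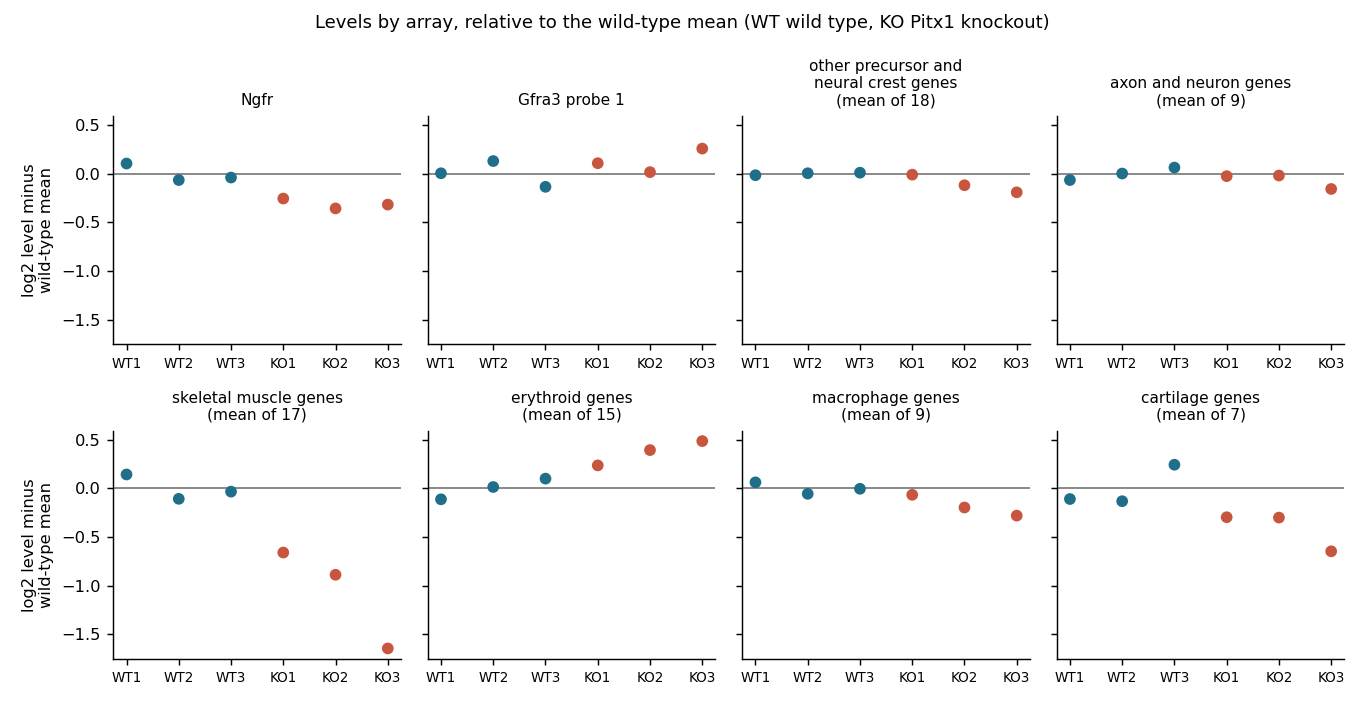
Log2 level minus the wild-type mean (vertical axis, shared) on each of the 6 arrays (horizontal axis) for Ngfr, the brightest Gfra3 probe and the mean of 6 lists, with wild type in blue and knockout in red. Ngfr lies at -0.25 to -0.36 in knockout, muscle genes at -0.66 to -1.64, and axon and neuron genes at -0.16 to -0.02.

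By the rule for likeness, the genes whose 6 values ran closest to the mean of Ngfr and Gfra3 were Npr3, Tmem150c, Lrrc3, Pgap4 and Eps8l2, with Pearson coefficients of 0.97 to 0.99 over the 6 arrays. That mean combines Ngfr with the brightest Gfra3 probe, whose log2 fold change of 0.13 lay within the spread between samples. The mean lay at -0.07, -0.17 and -0.03 in knockout replicates 1, 2 and 3 relative to wild type. Npr3, a natriuretic peptide receptor, gave 43.0, 41.5 and 35.6 units in wild type and 34.3, 30.1 and 37.3 in knockout. For Ngfr alone, a comparison added after the values were seen, the closest were Epn2, Cdh4, Sh3gl1, Nlrx1 and Tnnt3, with coefficients of 0.986 to 0.995. Epn2, which encodes the endocytic adaptor epsin 2, gave 559.7, 482.9 and 494.7 units in wild type and 425.3, 392.9 and 390.6 in knockout. Tnnt3, fast troponin T, is also in the muscle list. With 9539 genes searched over 6 arrays these coefficients only describe how closely the log2 values ran together.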

How the data were processed

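RNA was measured on Illumina bead arrays from 3 wild-type and 3 Pitx1 knockout hindlimb bud samples. Per the labels' protocols, Trizol-extracted, DNase-treated total RNA was turned into biotinylated cRNA with an Ambion kit; the scanner's software and the authors' background correction, normalization and build are not given in the sources used here. In the authors' deposited table the values are linear intensities, of which 27.9% lie below 0, and its sorted columns differ by at most 1.09 units, as quantile normalization would leave them. A second table was not used, since its 12 value columns match no sample's labels.

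Intensities were corrected with normexp at an offset of 50 and put on the log2 scale, using limma 3.58.1 under R 4.3.3. Background was 1.64 times the root mean square of the values below 0 (8.71 units), and 13720 of 25697 probes above it on at least 3 arrays were tested in limma's two-sided moderated test (lmFit, eBayes) of genotype without covariates, with Benjamini-Hochberg adjustment at 0.05. The probe with the highest mean stood for a gene, except that all probes of the members are given. Between 13535 and 13559 probes per array were above background, array correlations were 0.989 to 0.996, and 3 arrays per genotype limit the precision. Symbols came from GEO's platform annotation, updated by Entrez identifier (GRCm38.p6): 23978 probes have 1 symbol, 0 several and 1719 none here.

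The members and gene lists were chosen with earlier results of these data known. Named are all members, the 3 tested genes of lowest p in each list, 20 genes fixed by name, the cell type markers fixed for the label check (such as Stmn2, Nefl, Prph, Prrx1, Twist1, Msx1 and Tbx4), and the 5 genes most like the members' mean; others are said to be named afterwards. Some of the genes fixed by name are not reported here. Of lists for other cell types and tissue, counts are given in place of most of those genes. Alternatives covered the offset, background step, filter, normalization, replicate block, variance model, array weights, probe averaging and each array left out. Promoters are RefSeq's. Figures were drawn with matplotlib 3.10.9.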

Additional observations from a re-analysis of the deposited data

How the results depend on the processing

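The direction of each of the 4 tested member probes was the same under all 15 alternatives run for it, and none passed an adjusted p under 0.05 in limma in any of them. The filter, replicate block and variance model settings leave the fold change itself as it is, so they bear on the p-values and not on the direction. Ngfr ran from -0.39 to -0.26, with unadjusted p-values of 0.0022 to 0.029. Leaving out 1 array gave -0.34 to -0.26 for Ngfr, 0.06 to 0.19, 0.02 to 0.16 and -0.13 to -0.01 for Gfra3 probes 1 to 3. For Ngfr, whose genotypes did not overlap, leaving out 1 array could not change the direction. The count of member genes passing was 0 throughout. The count of all probes passing (30) was less stable: 8 with an offset of 16, 0 with values floored at the background threshold in place of normexp (951 with an unadjusted p under 0.05), 84 with the replicate block, and 0 to 91 with 1 array left out; the cause was not tested. With the replicate block Ngfr gave a limma adjusted p of 0.24, and 13 muscle, 6 erythroid and 2 limb mesenchyme genes passed. In the main fit the counts were 8, 2 and 1, the 1 being Pitx1 itself. Both genotypes carry replicate numbers 1 to 3 with no stated meaning; same-numbered arrays deviated together at correlations of 0.23, 0.17 and -0.07, and wild-type replicate 3 did not correlate best with its own number. With 1 array left out, the counts ran from 0 to 13 for muscle, 0 to 5 for erythroid, 0 to 1 for cartilage, 0 to 1 for limb mesenchyme and 0 to 1 for axon and neuron genes. The last count was Isl1, without knockout replicate 2. Dim probes such as Foxd3 and Fabp7 cannot show a fall at this background, nor a rise that stays below it. Both genes were above background on 0 knockout arrays.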
